A study of Rattus norvegicus with 18 samples.

Results

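Control lungs at Year 1 were compared with control lungs at Year 0.5. The comparison used the read counts of 6 of the 18 rats in the series, which were the 3 vehicle rats killed at week 52 and the 3 vehicle rats killed at week 26, and all 22081 genes of the deposited tables were joined by their identifier. The rats were male F344/DuCrlCrlj rats, an inbred strain, and each time point had its own animals. The control rats were instilled through the larynx, from young adulthood and at fixed intervals until they were killed, with sterile saline that contained Tween 80. Thus both groups carried the instillation, the anesthesia, and the vehicle, and the Year 1 rats had received more instillations and were older. The library of each rat was made from a small piece of the accessory lobe, and the killing of the animals was limited to morning hours. Age, number of instillations, and the time of tissue collection moved together and cannot be told apart. The MWCNT-treated rats of the same weeks, which received MWNT-7, a multiwalled carbon nanotube, in this vehicle, were used only to set the same interval beside that of the controls.

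The adult lung exchanges gas across alveoli lined by flat type 1 and surfactant-secreting type 2 cells, over a dense capillary bed held in a thin matrix of collagen and elastin. Immediate early genes encode transcription factors and signalling regulators that are transcribed within minutes of a stimulus and without new protein synthesis. Glucocorticoid receptor targets follow the level of circulating adrenal hormone, and the clock genes follow the time of day, with *Bmal1* and its partner driving the *Per*, *Nr1d*, and *Dbp* genes. In whole tissue, fewer cells of a type and less RNA per cell cannot be told apart.

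Total counts ranged from 13651405 to 17868851 in the 6 rats, and 14243 genes passed the filter on low counts. The 13 mitochondrial genes took 3.22 to 4.03% of the counts. Pearson's r of log2(CPM + 1) across genes, which are not independent replicates, was at least 0.987 between rats of the same time point and ranged from 0.983 to 0.992 between rats of different time points. Type 2 cell markers marked the tissue as lung, and their summed level was 32012, 31776, and 35287 TPM in the Year 0.5 rats and 38243, 37579, and 37000 TPM in the Year 1 rats. Cardiac muscle markers, which can enter from the muscle sleeve of the pulmonary veins, varied within both groups, from 241 to 877 TPM at Year 0.5 and from 251 to 679 TPM at Year 1. Club and secretory cell markers varied from 21919 to 32865 TPM at Year 0.5 and from 27209 to 34383 TPM at Year 1.

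No gene was called a DEG between the time points in control lungs. To be a DEG, a gene needed an FDR (Benjamini-Hochberg) under 0.05 in edgeR's quasi-likelihood test together with a log2 fold change beyond -1 or 1, and 0 of the 14243 genes (0%) passed even the FDR alone. The smallest FDR was 0.38. At an unadjusted p below 0.05 there were 1042 genes (7.32%), of which 542 were higher at Year 1 (3.81%) and 500 were lower (3.51%). The likelihood ratio test of edgeR called 25 genes (0.176%) and DESeq2 called 35 genes (0.246%) at an FDR below 0.05, and 22 genes were called by both.

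For most genes the estimated difference between the time points was small. The log2 fold change was within 0.5 of 0 in 13589 genes (95.4%), and its 95% interval lay between -1 and 1 in 12851 genes (90.2%). The median over all genes was -4e-04. All 3 Year 1 rats lay above all 3 Year 0.5 rats in 817 genes (5.74%) and below them in 868 genes (6.09%), measured in CPM scaled by TMM, and such genes are called without overlap below. An absolute log2 fold change above 1 was seen in 85 genes (0.597%), 54 higher and 31 lower at Year 1. Of these 85 genes, 39 were without overlap, and in 9 a rat had 0 counts while another rat of its own group had at least 50 counts.

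**Figure D1:**
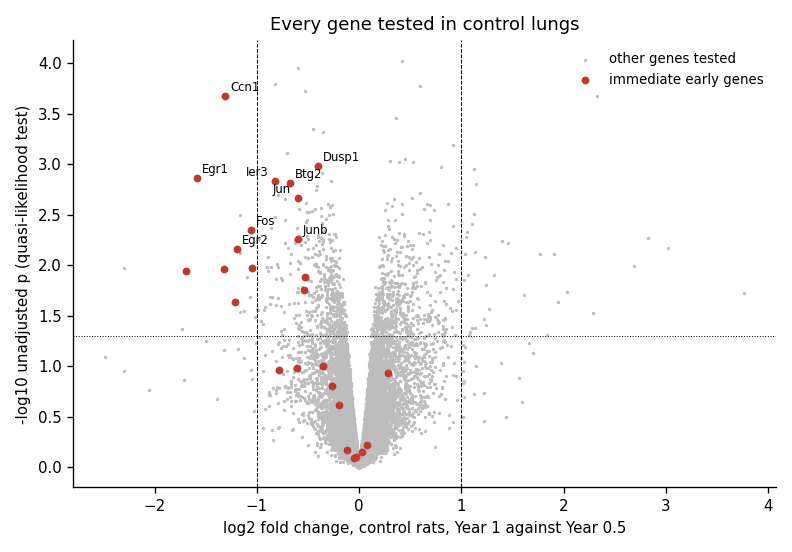
Each point is 1 of the 14243 genes tested, with the log2 fold change of control rats at Year 1 against Year 0.5 on the x axis and -log10 of the unadjusted p on the y axis. Dashed lines mark log2 fold changes of -1 and 1, the dotted line marks the unadjusted threshold of 0.05, red points are the 26 immediate early genes, and 23 of them lie to the left of 0.

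The smallest FDR, 0.38, was shared by 8 genes, and each of them was without overlap. *Lrp2* encodes megalin, an endocytic receptor of absorptive epithelia. Its level was 12.8, 11.5, and 12.8 TPM in the Year 0.5 rats and 16.4, 16.5, and 17.2 TPM in the Year 1 rats, and the log2 fold change was 0.42 ± 0.06 (SE). *Ppp1r1b* encodes a phosphatase inhibitor known from dopamine signalling, and it stood at 58.5, 61.3, and 66.7 TPM in the Year 0.5 rats and 85.3, 90.96, and 108 TPM in the Year 1 rats, with a log2 fold change of 0.60 ± 0.09 (SE). Both genes were higher in every Year 1 rat. The Year 2 control rats had 14.7, 16.2, and 16.1 TPM of *Lrp2* and 109, 98.7, and 84.6 TPM of *Ppp1r1b*, above all Year 0.5 rats. Genes shown here and below with Year 2 values were chosen by their difference from the same Year 0.5 rats. The position of Year 2 against Year 0.5 is therefore not independent of that choice.

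Of the 8 genes, 4 were lower in every Year 1 rat. *Col15a1*, a collagen of the basement membrane zone, had 40.2, 41.8, and 50.1 TPM in the Year 0.5 rats and 30.9, 29.1, and 28.3 TPM in the Year 1 rats, and its log2 fold change was -0.59 ± 0.09 (SE). *Cxcl14*, a chemokine made by epithelium and fibroblasts, was at 53.5, 52.6, and 67.5 TPM in the Year 0.5 rats and 36.3, 34.7, and 28.02 TPM in the Year 1 rats, a log2 fold change of -0.83 ± 0.13 (SE). *Wif1*, a secreted inhibitor of Wnt ligands, was at 109, 125, and 103 TPM in the Year 0.5 rats and 82.9, 77.6, and 75.2 TPM in the Year 1 rats, a log2 fold change of -0.53 ± 0.09 (SE). The lowest Year 0.5 rat stood above the highest Year 1 rat in all 3 genes. The Year 2 control rats were below every Year 0.5 rat, with 18.1, 27.8, and 25.1 TPM for *Col15a1*, 24.004, 28.3, and 26.4 TPM for *Cxcl14*, and 63.8, 70.6, and 75.8 TPM for *Wif1*. Again the Year 0.5 rats are those by which the genes were chosen. The other lower gene was *Ccn1*, described with the immediate early genes.

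The remaining pair had low counts. *Gpr50*, an orphan receptor related to the melatonin receptors, had 6, 6, and 9 counts at Year 0.5 and 24, 50, and 37 counts at Year 1, and its log2 fold change was 2.33 ± 0.38 (SE). In the Year 2 control rats it stood at 2.77, 4.095, and 4.73 TPM, against 0.358, 0.430, and 0.605 TPM at Year 0.5 and 1.72, 3.33, and 2.08 TPM at Year 1. *AABR07060952.1*, a gene model without a name at chr4:101639641-101640459, had 2, 3, and 0 counts at Year 0.5 and 24, 21, and 26 counts at Year 1. The Year 0.5 level of the latter was at the limit of detection, so no fold is given.

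DESeq2 gave 14 higher and 21 lower genes, and 5 of them (0.0351%) had an absolute log2 fold change above 1. These were *AABR07060952.1*, *Gpr50*, and *Mlc1* among the higher genes and *Ccn1* and *Egr2* among the lower. *Mlc1*, a membrane protein best known from astrocytes, had 5.93, 4.59, and 6.07 TPM in the Year 0.5 rats and 7.67, 14.6, and 14.3 TPM in the Year 1 rats, and its DESeq2 FDR was 0.0034 against 0.64 in the quasi-likelihood test. The Year 1 rats were all above the Year 0.5 rats, although replicate 1 stood near the latter. *Dlk1*, an imprinted membrane ligand related to Notch ligands, had 52.1, 78.7, and 50.4 TPM in the Year 0.5 rats and 116, 98.3, and 104.2 TPM in the Year 1 rats, and its DESeq2 FDR was 0.00092 against 0.64. Its level in the Year 2 control rats was 269, 232, and 97.1 TPM, where 1 rat was at the Year 1 level and the others were far above it. *Tbx3*, a T-box transcription factor of lung mesenchyme, was at 78.95, 83.4, and 66.8 TPM in the Year 0.5 rats and 60.7, 56.96, and 56.4 TPM in the Year 1 rats, lower in all 3 Year 1 rats with a DESeq2 FDR of 0.039.

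Immediate early genes were lower at Year 1 as a group. Of 26 members tested, 23 had a negative log2 fold change, and the exceptions were *Gadd45b*, *Klf6*, and *Ccn2*, with 0.28, 0.03, and 0.08. In 10 members all Year 1 rats were below all Year 0.5 rats and in 0 members all were above, against 6.09% and 5.74% of all genes tested. The median log2 fold change of the list was -0.60 beside -4e-04 over all genes. In the quasi-likelihood test 0 members passed the FDR. In DESeq2 7 members did and in the likelihood ratio test 6 did, beside 0.246% and 0.176% of all genes. The Year 1 rats were alike, with member medians of -0.44, -0.58, and -0.67 on the log2 scale relative to the Year 0.5 mean, while the Year 0.5 rats stood at -0.18, 0.30, and -0.13.

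*Ccn1* (chr2:251529354-251532312 of Rnor_6.0), a matrix-bound signalling protein, had the smallest p of the list. It was at 146, 261, and 182 TPM in the Year 0.5 rats and 64.6, 98.999, and 76.8 TPM in the Year 1 rats, and the log2 fold change was -1.31 ± 0.21 (SE), with a 95% interval of -1.80 to -0.82. The highest Year 1 rat lay well below the lowest Year 0.5 rat. *Egr1* (chr18:27657628-27661429), a zinc finger transcription factor, had 59.7, 159, and 90.2 TPM in the Year 0.5 rats and 22.97, 43.2, and 37.6 TPM in the Year 1 rats, and the log2 fold change was -1.59 ± 0.34 (SE). *Egr3* showed the same order with more spread, at 3.64, 10.7, and 4.39 TPM in the Year 0.5 rats and 3.46, 1.34, and 1.08 TPM in the Year 1 rats and a log2 fold change of -1.70 ± 0.53 (SE). *Egr2* was at 4.09, 12.03, and 8.24 TPM in the Year 0.5 rats and 3.84, 3.195, and 3.63 TPM in the Year 1 rats, where the Year 1 rats were closely alike just below the lowest Year 0.5 rat.

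*Fos* and *Jun* encode the subunits of the AP-1 transcription factor. *Fos* had 44.9, 94.2, and 79.1 TPM in the Year 0.5 rats and 24.7, 45.4, and 35.7 TPM in the Year 1 rats, a log2 fold change of -1.06 ± 0.28 (SE), and the highest Year 1 rat touched the lowest Year 0.5 rat, so that the groups were apart in CPM and crossed slightly in TPM, where 9 rather than 10 members were lower without overlap. *Jun* had 404, 496, and 327 TPM in the Year 0.5 rats and 280.5, 289, and 250.2 TPM in the Year 1 rats, with -0.60 ± 0.14 (SE). *Junb* was at 220.2, 352, and 319 TPM in the Year 0.5 rats and 182, 183, and 229 TPM in the Year 1 rats, a log2 fold change of -0.60 ± 0.16 (SE), and its groups overlapped. These genes differed among the Year 0.5 rats more than among the Year 1 rats, and replicate 2 was the highest Year 0.5 rat for all 3.

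Several members act as brakes on the response. *Dusp1*, a phosphatase that turns off MAP kinases, had 913, 1022, and 989 TPM in the Year 0.5 rats and 654, 813, and 776 TPM in the Year 1 rats, with a log2 fold change of -0.40 ± 0.08 (SE) and a DESeq2 FDR of 0.0053. *Ier3*, a regulator of survival signalling, was at 57.9, 93.3, and 59.4 TPM in the Year 0.5 rats and 36.2, 42.9, and 41.1 TPM in the Year 1 rats, with -0.82 ± 0.18 (SE). *Btg2*, which restrains the cell cycle, was at 249, 383, and 269 TPM in the Year 0.5 rats and 177, 205, and 190.3 TPM in the Year 1 rats, with -0.67 ± 0.15 (SE). All 3 were lower in every Year 1 rat than in any Year 0.5 rat. Outside the list, *Ppp1r15a*, which recruits the phosphatase of eIF2alpha, had 65.02, 94.7, and 57.4 TPM in the Year 0.5 rats and 46.7, 44.1, and 41.8 TPM in the Year 1 rats. The kinases *Plk2* and *Sik1* had 67.8, 80.2, and 50.7 TPM at Year 0.5 and 48.7, 43.1, and 39.9 TPM at Year 1 for *Plk2* and 96.4, 96.2, and 82.9 TPM at Year 0.5 and 75.9, 71.4, and 59.8 TPM at Year 1 for *Sik1*. These 3 genes were named after their values were seen, were without overlap, and were called lower by DESeq2, with FDRs of 0.0052, 0.033, and 0.039.

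**Figure D2:**
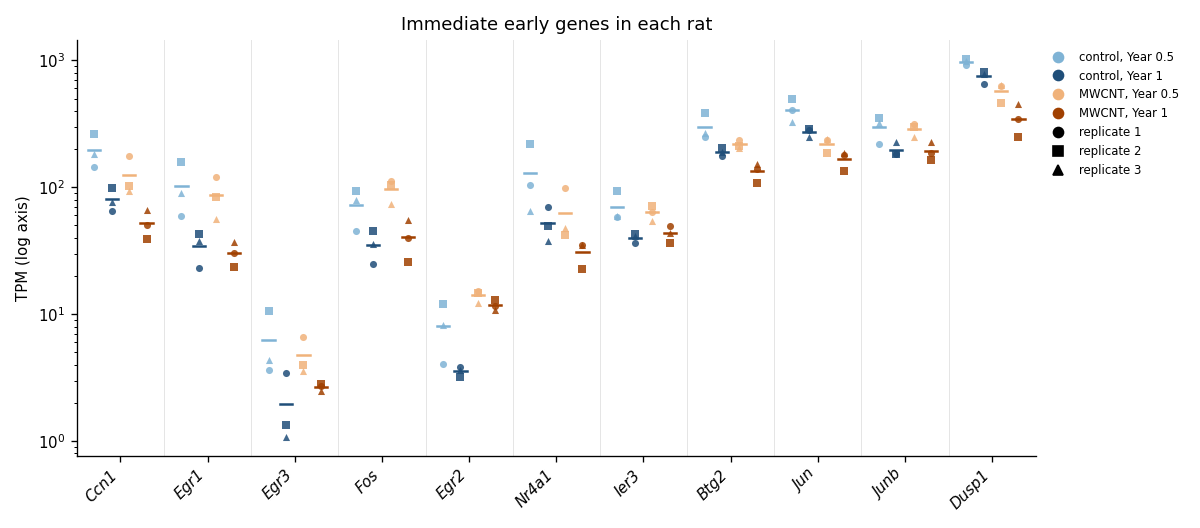
TPM of 11 immediate early genes on a log axis, with 1 symbol for each rat, shape for the replicate number, color for treatment and time, and a line at the mean of 3 rats. The control rats of Year 1 lie below those of Year 0.5 for 8 of the genes, and *Fos*, *Nr4a1*, and *Junb* overlap in TPM.

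Promoter sequence is shown for *Ccn1*, the member with the smallest p, and for 4 members that were lower without overlap and held one of the motifs searched, so that the sites can be seen. Binding sites for serum response factor (the CArG box) and for CREB (the CRE, TGACGTCA) are the best known elements of such genes. RefSeq promoter windows of 300 bases, from 250 bases before the start of transcription to 50 after it in the assembly GRCr8, were matched by symbol for 19 of the 27 listed members. A CArG box was found for 4 of the 19 members (21.1%) and in 1.64% of all 33469 windows. A CRE was found for 4 members (21.1%) and in 1.83% of all windows. The list was counted by member and the background by window. Whether the sites bear on the lower levels was not tested. Both patterns read the same on either strand, and no member's window held both. The motifs were chosen after the expression values were seen. The 250 bases before the start are given 5′ to 3′ on the gene's strand, and capitals mark each match.
Egr1 (chr18:26736828-26737077, plus strand): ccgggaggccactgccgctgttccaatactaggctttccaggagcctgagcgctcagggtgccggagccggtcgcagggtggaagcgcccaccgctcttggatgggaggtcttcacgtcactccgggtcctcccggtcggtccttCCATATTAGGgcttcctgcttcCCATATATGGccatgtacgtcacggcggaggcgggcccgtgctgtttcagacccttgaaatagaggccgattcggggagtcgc
Egr2 (chr20:21054442-21054691, minus strand): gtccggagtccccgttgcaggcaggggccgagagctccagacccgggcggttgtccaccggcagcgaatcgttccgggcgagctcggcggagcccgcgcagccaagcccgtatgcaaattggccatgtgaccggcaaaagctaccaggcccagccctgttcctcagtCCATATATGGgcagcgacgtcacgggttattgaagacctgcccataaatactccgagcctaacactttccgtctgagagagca
Dusp1 (chr10:17184603-17184852, plus strand): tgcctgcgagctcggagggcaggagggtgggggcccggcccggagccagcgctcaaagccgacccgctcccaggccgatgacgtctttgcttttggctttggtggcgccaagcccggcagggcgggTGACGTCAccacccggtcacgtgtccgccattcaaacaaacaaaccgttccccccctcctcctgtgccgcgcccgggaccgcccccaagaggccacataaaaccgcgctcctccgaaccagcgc
Btg2 (chr13:48087691-48087940, minus strand): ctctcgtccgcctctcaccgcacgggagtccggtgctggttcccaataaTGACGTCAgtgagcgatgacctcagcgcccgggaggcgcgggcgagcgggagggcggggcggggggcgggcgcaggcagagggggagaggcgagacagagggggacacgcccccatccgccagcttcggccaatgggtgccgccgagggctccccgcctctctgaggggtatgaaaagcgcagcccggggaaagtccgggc
Ccn1 (chr2:237225690-237225939, minus strand): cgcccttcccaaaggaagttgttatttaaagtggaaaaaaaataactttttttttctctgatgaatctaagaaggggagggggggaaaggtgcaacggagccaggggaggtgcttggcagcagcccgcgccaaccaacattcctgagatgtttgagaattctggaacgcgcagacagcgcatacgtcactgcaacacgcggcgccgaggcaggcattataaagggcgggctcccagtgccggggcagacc
*Egr1* held CArG boxes with first bases at -105 and -83 from the start, and *Egr2* held 1 at -83. A CRE began at -124 in *Dusp1* and at -201 in *Btg2*. The window of *Ccn1*, the member with the smallest p, held neither of these letter patterns. Other members with a match were *Zfp36* and *Klf6* for the CArG box and *Jund* and *Ier2* for the CRE.

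Immediate early genes were also lower at Year 1 in the MWCNT-treated rats, which share no animal with the control comparison. Of the 26 members, 12 were lower at Year 1 without overlap in the MWCNT-treated rats, where the background was 7.16%. There were 8 members lower without overlap in both treatments, which were *Ccn1*, *Egr1*, *Egr3*, *Fos*, *Jun*, *Ier3*, *Btg2*, and *Dusp1*. They made up 80.0% of the 10 members in the control rats and 66.7% of the 12 members in the MWCNT-treated rats. Over all genes tested in both treatments, 81 of 862 genes that were lower without overlap in the control rats (9.40%) were so in the MWCNT-treated rats as well. *Ccn1* stood at 177, 102, and 93.1 TPM at Year 0.5 and 50.5, 39.1, and 66.5 TPM at Year 1 in MWCNT-treated rats, a log2 fold change of -1.20 ± 0.25 (SE) and an FDR of 0.26. *Egr1* stood at 119.8, 83.3, and 56.4 TPM at Year 0.5 and 30.4, 23.6, and 36.96 TPM at Year 1 there, a log2 fold change of -1.46 ± 0.25 (SE) and an FDR of 0.14. The interaction for *Ccn1*, the control difference minus the MWCNT difference, was -0.12 ± 0.38 (SE), and that for *Egr1* was -0.14 ± 0.48 (SE). In the Year 2 control rats, *Ccn1* was at 115, 127, and 85.4 TPM and *Egr1* at 51.1, 50.7, and 50.4 TPM. For *Egr1* all 3 lay between the highest Year 1 and the lowest Year 0.5 control rat. For *Ccn1* 1 lay within the range of the Year 1 control rats, and the others lay between the 2 groups.

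Glucocorticoid receptor targets were high in only part of the Year 1 rats. The member medians were 0.02, 0.72, and 0.81 on the log2 scale in Year 1 replicates 1, 2, and 3, and -0.15, -0.29, and 0.45 in the Year 0.5 rats. The groups overlapped in 15 of 16 members, and 0 were called in the quasi-likelihood test. Without overlap, 1 member was higher (6.25%) and 0 were lower, beside 5.74% and 6.09% of all genes. The median log2 fold change of the list was 0.49, with 13 members above 0 and 3 below. *Zbtb16*, a transcriptional repressor strongly induced by glucocorticoids, was at 13.9, 6.92, and 6.34 TPM in the Year 0.5 rats and 7.65, 84.9, and 105 TPM in the Year 1 rats. Year 1 replicate 1 was within the range of the Year 0.5 rats and the others were several times above it, so that the log2 fold change was 2.83 ± 0.77 (SE). *Fkbp5*, a co-chaperone of the receptor, was at 19.8, 18.7, and 39.4 TPM in the Year 0.5 rats and 25.3, 140.1, and 129.5 TPM in the Year 1 rats, a log2 fold change of 1.90 ± 0.55 (SE). *Tsc22d3*, the leucine zipper protein GILZ, was at 287, 212, and 455 TPM in the Year 0.5 rats and 356, 720.1, and 637 TPM in the Year 1 rats, with 0.83 ± 0.30 (SE). *Pdk4*, which inhibits the entry of pyruvate into the citric acid cycle, was at 11.997, 7.51, and 25.7 TPM in the Year 0.5 rats and 16.4, 54.9, and 38.8 TPM in the Year 1 rats, with 1.27 ± 0.48 (SE). In each of these 4 genes at least 1 Year 0.5 rat stood above Year 1 replicate 1. The only member without overlap was *Sult1a1*, a sulfotransferase, at 209, 182, and 213 TPM in the Year 0.5 rats and 232, 308, and 333 TPM in the Year 1 rats, with 0.51 ± 0.12 (SE) and a DESeq2 FDR of 0.0155.

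Clock genes overlapped between the time points in most members, with 1 of 19 higher and 2 lower without overlap. These were 5.26% and 10.5%, beside 5.74% and 6.09% of all genes. *Nr1d1*, the repressor REV-ERB alpha, was at 54.1, 56.98, and 62.1 TPM in the Year 0.5 rats and 55.7, 114, and 128 TPM in the Year 1 rats, with a log2 fold change of 0.77 ± 0.25 (SE). *Nr1d2*, its paralog, was at 41.7, 40.1, and 39.3 TPM in the Year 0.5 rats and 39.3, 59.05, and 62.5 TPM in the Year 1 rats. *Per2* stood at 7.48, 5.76, and 10.8 TPM at Year 0.5 and 8.69, 13.2, and 16.9 TPM at Year 1, and *Per3* at 13.7, 11.03, and 12.1 TPM at Year 0.5 and 12.98, 17.1, and 21.5 TPM at Year 1. *Dbp* and *Tef* encode output factors of the clock, and they were at 13.4, 19.05, and 12.6 TPM at Year 0.5 and 15.7, 22.9, and 30.1 TPM at Year 1 for *Dbp* and at 62.2, 57.04, and 63.2 TPM at Year 0.5 and 67.04, 89.9, and 90.4 TPM at Year 1 for *Tef*. *Arntl*, the gene of BMAL1, ran the other way, at 35.7, 32.7, and 35.6 TPM in the Year 0.5 rats and 33.6, 28.3, and 24.4 TPM in the Year 1 rats. Year 1 replicate 1 was at or close to the Year 0.5 level for these genes. At an unadjusted p below 0.05, 7 members of the list were higher and 1 was lower, beside 3.81% and 3.51% of all genes. The median log2 fold change of 0.07 was not stable, at 0.02 without Year 0.5 replicate 1 or Year 1 replicate 3, 0.15 without Year 0.5 replicate 3, and 0.14 without Year 1 replicate 1.

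Leaving out Year 1 replicate 1 changed the outcome of the comparison, while leaving out any other of the 6 rats left 0 genes past the FDR. Without it, 44 genes passed the FDR, 39 higher and 5 lower at Year 1, of which 7 had a log2 fold change above 1. Those 7 were *Zbtb16*, *Fkbp5*, *Nr1d1*, *Mlc1*, *Hif3a*, *Pfkfb3*, and *Wnk2*. The edgeR FDR of *Zbtb16* was then 0.0156, that of *Fkbp5* 0.0348, and that of *Nr1d1* 0.0119. *Hif3a*, a hypoxia-inducible factor, was at 0.699, 0.209, and 1.05 TPM in the Year 0.5 rats and 0.489, 6.56, and 5.91 TPM in the Year 1 rats. *Pfkfb3*, a regulator of glycolysis, was at 48.9, 45.7, and 61.7 TPM in the Year 0.5 rats and 48.5, 123, and 114 TPM in the Year 1 rats. Both were high in Year 1 replicates 2 and 3 and in the range of the Year 0.5 rats in replicate 1. Of the 44 genes only *Mlc1*, *Slc28a2*, *Sult1a1*, and *LOC100910790* were among the 35 called by DESeq2 in all 6 rats. A like spread was seen in the MWCNT-treated rats, where *Zbtb16* was at 6.63, 11.6, and 70.1 TPM at Year 0.5 and 6.33, 4.34, and 54.4 TPM at Year 1, high in 1 rat of each time point.

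**Figure D3:**
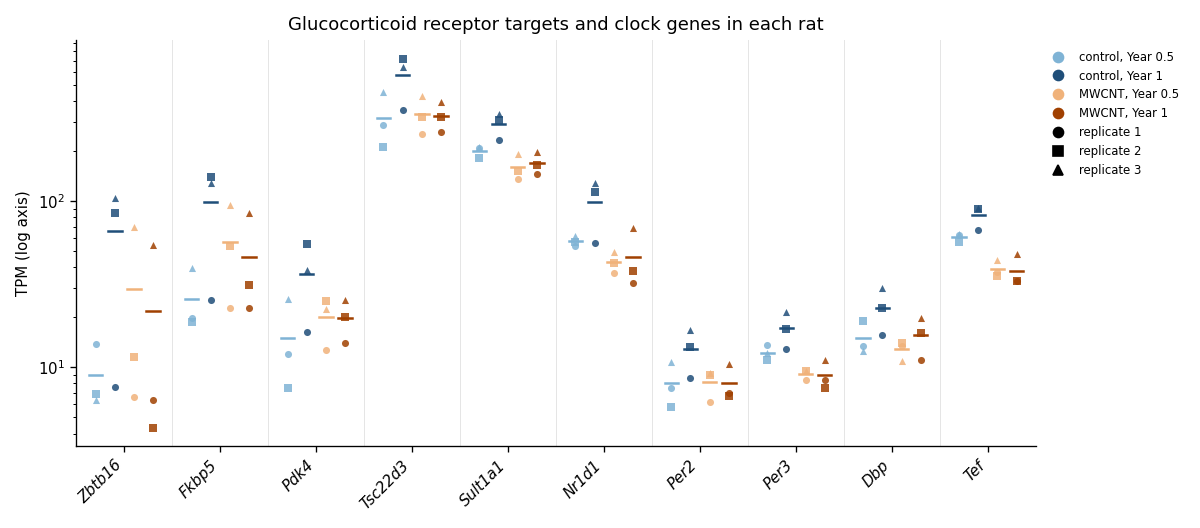
TPM of 5 glucocorticoid receptor targets and 5 clock genes on a log axis, with 1 symbol for each rat, shape for the replicate number, color for treatment and time, and a line at the mean of 3 rats. Year 1 control replicates 2 and 3 (square and triangle) stand above replicate 1 (circle) for all 10 genes.

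Beyond these lists, markers of cell types and structural genes differed by small amounts. The endothelial list was lower, with 20 of 22 members below 0 and a median log2 fold change of -0.16. Without overlap, 6 were lower (27.3%, beside 6.09% of all genes) and 0 were higher. *Emcn*, a sialomucin of capillary and venous endothelium, was at 119, 116, and 111 TPM in the Year 0.5 rats and 94.1, 90.1, and 89.2 TPM in the Year 1 rats, with -0.35 ± 0.07 (SE). *Cdh5*, the cadherin of endothelial junctions, was at 498, 491, and 432 TPM in the Year 0.5 rats and 413, 394, and 416 TPM in the Year 1 rats, with -0.23 ± 0.07 (SE). *Aplnr*, the apelin receptor, was at 201, 220.3, and 139 TPM in the Year 0.5 rats and 136, 96.4, and 109 TPM in the Year 1 rats, with -0.73 ± 0.18 (SE). The Year 1 rats were the lower group without overlap in all 3, and DESeq2 called *Emcn* with an FDR of 0.039. The summed level of all 22 markers in the files ranged from 7023 to 8092 TPM at Year 0.5 and from 6736 to 7141 TPM at Year 1. In the MWCNT-treated rats 16 of the 22 members were also below 0, with a median of -0.08, and 0 were lower without overlap beside 7.16% of all genes. The interaction for *Emcn* was -0.42 ± 0.10 (SE), with 0 interactions called over all genes.

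Matrix genes were lower in the same direction. Of 32 fibrillar collagens and matrix genes, 26 were below 0, and the median was -0.13, or -0.03 without Year 0.5 replicate 3. Without overlap, 10 were lower (31.2%, beside 6.09% of all genes) and 0 were higher. *Sparc*, a collagen-binding glycoprotein, was at 1571, 1683, and 1702 TPM in the Year 0.5 rats and 1505, 1359, and 1375 TPM in the Year 1 rats, with -0.24 ± 0.07 (SE). *Thbs2*, a thrombospondin, was at 2.43, 2.75, and 3.63 TPM in the Year 0.5 rats and 2.16, 2.12, and 1.75 TPM in the Year 1 rats, with -0.56 ± 0.19 (SE). *Mfap5*, a microfibril protein of elastic fibers, was at 37.01, 40.1, and 42.6 TPM in the Year 0.5 rats and 31.6, 32.9, and 34.3 TPM in the Year 1 rats, with -0.29 ± 0.09 (SE). In the basement membrane list, 4 of 19 members (21.1%) were lower without overlap (2 in TPM) and 0 were higher. One of these, *Nid1*, which links laminin to type IV collagen, was at 54.5, 48.9, and 52.95 TPM in the Year 0.5 rats and 43.4, 46.6, and 42.8 TPM in the Year 1 rats, with -0.25 ± 0.06 (SE). *Nid1* was also lower in the MWCNT-treated rats, with -0.54 ± 0.09 (SE). These differences amounted to less than 2-fold in every named gene, and the fibroblast list, with 13 of 17 members below 0, had a median of -0.14.

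Some genes of the Wnt, Notch, TGF-beta, and BMP pathways were also lower. In the Wnt and Notch list the signs were near even, with 21 of 37 members below 0 and 16 above. Without overlap, 8 were lower (21.6%, beside 6.09% of all genes) and 1 was higher (2.7%, beside 5.74%). The median of the list was -0.11, or 0.0055 without Year 0.5 replicate 3. *Hes1*, a repressor induced by Notch, was at 124, 146, and 129 TPM in the Year 0.5 rats and 101, 101, and 91.4 TPM in the Year 1 rats, with -0.46 ± 0.08 (SE) and a DESeq2 FDR of 0.006. *Hey2*, another Notch target, was at 14.9, 14.7, and 11.8 TPM in the Year 0.5 rats and 10.5, 10.3, and 10.4 TPM in the Year 1 rats, with -0.42 ± 0.12 (SE), and *Lef1*, a nuclear partner of beta-catenin, was at 10.9, 10.3, and 9.91 TPM in the Year 0.5 rats and 8.51, 5.78, and 6.88 TPM in the Year 1 rats, with -0.57 ± 0.16 (SE). In the TGF-beta and BMP list, 26 of 35 members were below 0, 7 (20%) were lower and 0 were higher without overlap, and the median was -0.13. *Tgfb2*, a ligand, was at 35.000, 34.3, and 34.98 TPM in the Year 0.5 rats and 28.03, 32.2, and 28.5 TPM in the Year 1 rats, and *Id1*, an inhibitor of DNA binding induced by BMP, was at 572, 715, and 629 TPM in the Year 0.5 rats and 509, 542, and 552 TPM in the Year 1 rats. Each of these genes was lower in all Year 1 rats than in any Year 0.5 rat. By contrast, *Heyl* and *Hey1* of the Wnt and Notch list were above 0, with log2 fold changes of 0.66 and 0.15, and their groups overlapped.

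**Figure D4:**
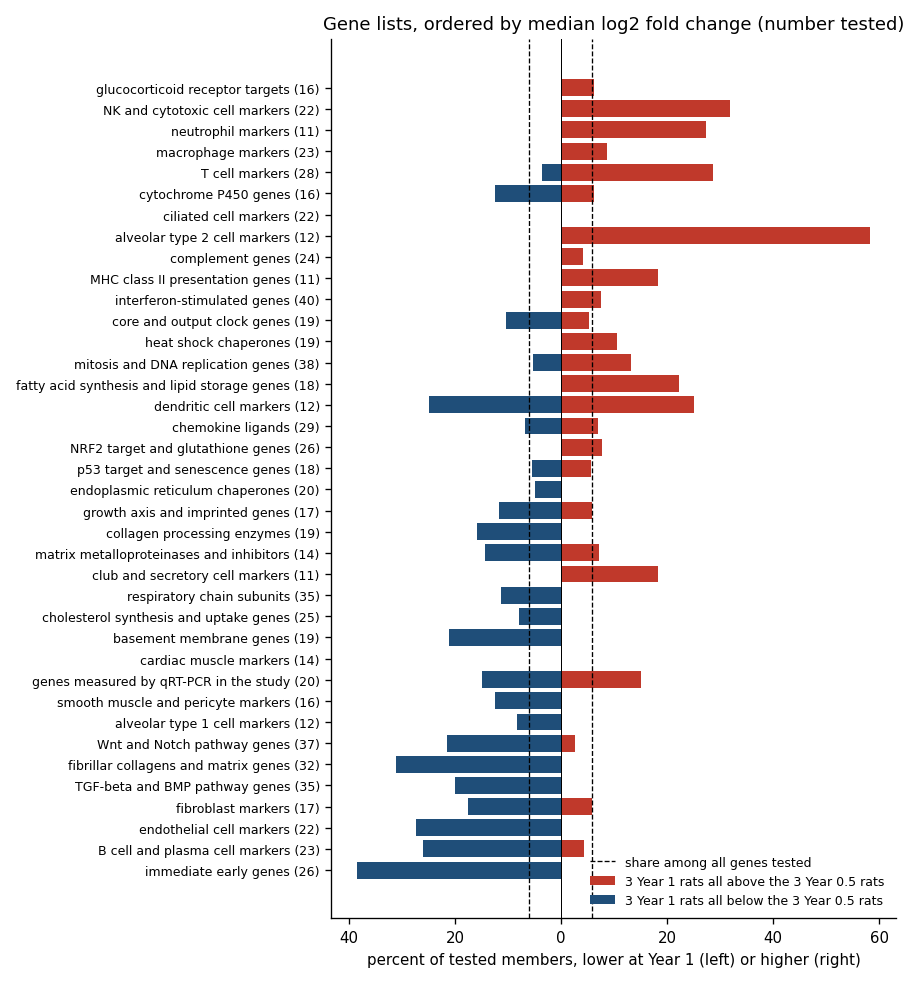
Percent of the tested members of each gene list in which the 3 Year 1 control rats lay all above (right) or all below (left) the 3 Year 0.5 control rats, for lists with at least 11 tested members, ordered by the median log2 fold change. Dashed lines mark the shares over all genes tested, 5.74% and 6.09%, and the longest bars are the type 2 cell markers on the right and the immediate early genes on the left.

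Alveolar type 2 cell markers were slightly higher at Year 1, while 0 passed the FDR. Of 12 members tested, 11 were above 0, yet the median log2 fold change was only 0.14. Without overlap, 7 were higher (58.3%, beside 5.74% of all genes). *Sftpc*, a surfactant protein that marks these cells, was at 19293, 19827, and 21304 TPM in the Year 0.5 rats and 23609, 22587, and 22423 TPM in the Year 1 rats, with 0.17 ± 0.07 (SE). *Abca3*, which loads surfactant lipid into lamellar bodies, was at 172, 177, and 181 TPM in the Year 0.5 rats and 198, 199, and 199 TPM in the Year 1 rats, with 0.16 ± 0.05 (SE). *Slc34a2*, a phosphate transporter of the apical membrane, was at 899.8, 911, and 945 TPM in the Year 0.5 rats and 976, 1079, and 1078 TPM in the Year 1 rats, with 0.17 ± 0.06 (SE). *Lamp3*, a lamellar body membrane protein, was at 391, 351, and 396 TPM in the Year 0.5 rats and 438, 449, and 422 TPM in the Year 1 rats, with 0.19 ± 0.06 (SE). The groups were separate by a narrow margin in all 4. Of 18 fatty acid synthesis and lipid storage genes, 13 were above 0 and 5 below, with a median of only 0.05. Without overlap, 4 were higher (22.2%) and 0 were lower. *Fasn*, the fatty acid synthase, was at 144, 127, and 165 TPM in the Year 0.5 rats and 186, 238, and 211 TPM in the Year 1 rats, a log2 fold change of 0.52 ± 0.11 (SE) and a DESeq2 FDR of 0.0014. *Dgat2*, which makes triglyceride, was at 26.5, 23.99, and 25.99 TPM in the Year 0.5 rats and 30.1, 31.8, and 34.4 TPM in the Year 1 rats, with 0.32 ± 0.08 (SE). *Hmgcs1* of cholesterol synthesis was lower, at 40.6, 36.1, and 37.5 TPM in the Year 0.5 rats and 34.3, 25.96, and 25.5 TPM in the Year 1 rats, with -0.43 ± 0.12 (SE). Its list of 25 members had a median of only -0.05, and 2 (8%) were lower without overlap, near the share of all genes. In the type 1 cell list 11 of 12 members were below 0, but 1 (8.33%) was lower without overlap beside 6.09% of all genes. Its median was -0.09, or -0.05 without Year 1 replicate 2 and -0.06 without Year 0.5 replicate 2.

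In the Year 2 control rats *Abca3* was at 148, 148, and 169 TPM, *Slc34a2* at 640.5, 651, and 848 TPM, and *Lamp3* at 259, 261, and 334 TPM. *Fasn* was at 128, 142, and 146 TPM. For these 3 type 2 markers the values were below those of every Year 1 rat and every Year 0.5 rat. *Sftpc*, at 20489, 17721, and 20041 TPM, was below every Year 1 rat and overlapped with the Year 0.5 rats, and so did the summed level of the list, at 31885, 28895, and 32701 TPM. No test of the Year 2 rats was run here.

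Markers of cytotoxic lymphocytes were higher at Year 1. Of 22 members of the NK and cytotoxic list, 21 were above 0, and the median log2 fold change was 0.36. Without overlap, 7 were higher (31.8%, beside 5.74% of all genes) and 0 were lower. *Il2rb*, a subunit of the IL-2 and IL-15 receptors, was at 37.8, 40.8, and 35.6 TPM in the Year 0.5 rats and 48.1, 54.7, and 48.8 TPM in the Year 1 rats, with 0.39 ± 0.08 (SE). *Prf1*, the pore-forming protein of cytotoxic granules, was at 61.3, 74.05, and 56.8 TPM in the Year 0.5 rats and 93.6, 81.1, and 78.4 TPM in the Year 1 rats, with 0.38 ± 0.11 (SE). *Il18rap*, a subunit of the IL-18 receptor, was at 3.67, 4.75, and 4.31 TPM in the Year 0.5 rats and 4.98, 7.01, and 8.37 TPM in the Year 1 rats, with 0.67 ± 0.18 (SE), and *Ncr1*, an activating receptor of NK cells, was at 4.22, 5.62, and 4.62 TPM in the Year 0.5 rats and 6.95, 6.46, and 6.53 TPM in the Year 1 rats, with 0.45 ± 0.15 (SE). The Year 1 rats were all above the Year 0.5 rats in these 4 genes. The summed level of the list ranged from 572 to 818 TPM at Year 0.5 and from 864 to 948 TPM at Year 1.

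T cell markers followed, with 8 of 28 members higher and 1 lower without overlap and a median of 0.18. These were 28.6% and 3.57%, beside 5.74% and 6.09% of all genes. *Pdcd1*, the inhibitory receptor PD-1, was at 1.31, 1.495, and 1.89 TPM in the Year 0.5 rats and 3.22, 4.11, and 3.16 TPM in the Year 1 rats, with 1.14 ± 0.25 (SE), and the likelihood ratio test gave an FDR of 0.0415. It was at 4.72, 4.48, and 6.69 TPM in the Year 2 control rats. *Cd8b*, a chain of the CD8 coreceptor, was at 4.83, 4.61, and 3.68 TPM in the Year 0.5 rats and 9.14, 6.94, and 8.15 TPM in the Year 1 rats, with 0.87 ± 0.21 (SE), and *Gzmk* was at 47.3, 67.4, and 50.5 TPM in the Year 0.5 rats and 72.7, 75.7, and 69.4 TPM in the Year 1 rats, with 0.39 ± 0.13 (SE). The single lower member was *Ccr7*, the homing receptor of naive and central memory T cells, at 19.2, 22.9, and 18.4 TPM in the Year 0.5 rats and 16.3, 11.6, and 11.7 TPM in the Year 1 rats, with -0.63 ± 0.17 (SE). *Ccr7* was also lower without overlap in the MWCNT-treated rats, at 16.4, 16.1, and 16.6 TPM at Year 0.5 and 12.8, 9.61, and 9.400 TPM at Year 1. It was also in the list of dendritic cell markers, and which cells its RNA came from was not tested. Of the 12 dendritic cell markers, 3 were higher and 3 were lower without overlap (25% each).

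B cell markers went the other way, with 6 of 23 members lower and 1 higher without overlap and a median of -0.28. These were 26.1% and 4.35%, beside 6.09% and 5.74% of all genes. *Cd79b*, a signalling chain of the B cell antigen receptor, was at 19.2, 22.3, and 17.8 TPM in the Year 0.5 rats and 16.97, 9.55, and 9.07 TPM in the Year 1 rats, with -0.76 ± 0.25 (SE). *Tnfrsf13b*, the receptor TACI, was at 3.21, 3.84, and 2.88 TPM in the Year 0.5 rats and 1.16, 1.43, and 1.81 TPM in the Year 1 rats, with -1.16 ± 0.33 (SE). Both genes were without overlap, while *Fcrl2* was higher, at 7.38, 6.69, and 8.396 TPM in the Year 0.5 rats and 9.81, 9.996, and 13.1 TPM in the Year 1 rats. The summed level of the list, in which the few abundant members weigh most, was 743, 785, and 875 TPM at Year 0.5 and 983, 716, and 1223 TPM at Year 1, and the sum did not follow the median of the members.

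Neutrophil markers were also higher. All 11 neutrophil markers tested were above 0, 3 (27.3%) were higher and 0 were lower without overlap, and the median was 0.35. *Csf3r*, the receptor for G-CSF, was at 13.9, 15.9, and 17.1 TPM in the Year 0.5 rats and 22.9, 18.04, and 25.96 TPM in the Year 1 rats, with 0.50 ± 0.14 (SE), *Mmp8*, the neutrophil collagenase, was at 5.57, 7.74, and 7.48 TPM in the Year 0.5 rats and 10.5, 8.91, and 16.2 TPM in the Year 1 rats, with 0.77 ± 0.23 (SE), and *S100a9*, a calprotectin subunit, was at 93.8, 113, and 98.1 TPM in the Year 0.5 rats and 140.3, 117, and 164 TPM in the Year 1 rats, with 0.45 ± 0.13 (SE). Their groups did not overlap, but Year 1 replicate 2 was close to the Year 0.5 rats for *Csf3r*, *S100a9*, and *Mmp8*. Among 23 macrophage markers, 18 were above 0 and the median was 0.18, but only 2 (8.7%) were higher without overlap beside 5.74% of all genes, and the rats of the 2 time points overlapped in their member medians. *Mrc1*, the mannose receptor, was at 50.4, 49.6, and 59.7 TPM in the Year 0.5 rats and 65.4, 81.1, and 74.04 TPM in the Year 1 rats, with 0.45 ± 0.09 (SE) and a DESeq2 FDR of 0.0076. *Cd163*, a hemoglobin scavenger receptor induced by glucocorticoids, was at 2.71, 3.89, and 6.47 TPM in the Year 0.5 rats and 5.79, 10.7, and 8.905 TPM in the Year 1 rats, with 0.95 ± 0.31 (SE), and its groups overlapped. *Mrc1* was at 40.6, 31.6, and 51.9 TPM in the Year 2 control rats, below the Year 1 level.

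**Figure D5:**
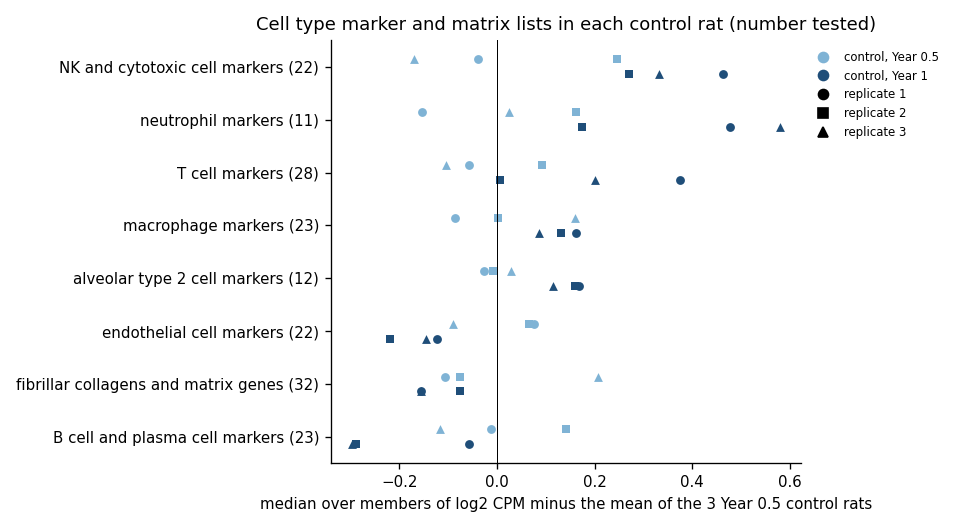
Median over the members of 8 gene lists of log2 CPM minus the mean of the 3 Year 0.5 control rats, with 1 symbol for each control rat and shape for the replicate number. The Year 1 rats lie above the Year 0.5 rats for NK and cytotoxic, neutrophil, and type 2 markers, and below them for endothelial markers, while the other lists overlap.

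Stress and proliferation genes differed singly. *Hmox1*, the heme oxygenase, was at 48.9, 49.96, and 49.6 TPM in the Year 0.5 rats and 72.7, 99.04, and 60.9 TPM in the Year 1 rats, with 0.63 ± 0.15 (SE) and a DESeq2 FDR of 0.0235. In its NRF2 list, 2 of 26 members (7.69%) were higher without overlap, near the 5.74% of all genes. *Oas3*, an interferon-induced sensor of double-stranded RNA, was at 3.31, 3.91, and 4.66 TPM in the Year 0.5 rats and 5.41, 6.98, and 6.96 TPM in the Year 1 rats, with 0.69 ± 0.17 (SE). Of 40 interferon-stimulated genes, 3 (7.5%) were higher without overlap, also near the share of all genes. The proliferation marker *Mki67* was at 3.08, 3.24, and 3.63 TPM in the Year 0.5 rats and 4.896, 4.01, and 4.32 TPM in the Year 1 rats, with 0.40 ± 0.11 (SE). Without overlap, 5 of 38 mitosis and replication genes were higher (13.2%) and 2 were lower (5.26%, beside 6.09% of all genes). *Gdf15*, a stress-induced cytokine, was at 39.9, 37.9, and 48.2 TPM in the Year 0.5 rats and 30.2, 31.9, and 26.5 TPM in the Year 1 rats, with -0.52 ± 0.12 (SE). None of these genes overlapped between the groups, and all had an FDR of 0.64.

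Some genes had also been picked for qRT-PCR on these animals, so that they are not independent evidence of a direction. Of these 22 genes, 20 were tested and 0 were called. Without overlap, 3 were higher and 3 were lower (15% each, beside 5.74% and 6.09% of all genes). *Plau*, the urokinase, was at 48.1, 51.8, and 43.3 TPM in the Year 0.5 rats and 38.3, 33.8, and 35.9 TPM in the Year 1 rats, with -0.42 ± 0.10 (SE), whereas *Plaur*, its receptor, was at 10.1, 11.4, and 13.3 TPM in the Year 0.5 rats and 15.9, 18.1, and 18.7 TPM in the Year 1 rats, with 0.59 ± 0.16 (SE). *Erbb2* was at 20.9, 18.8, and 22.4 TPM in the Year 0.5 rats and 23.4, 25.03, and 23.8 TPM in the Year 1 rats, with 0.20 ± 0.08 (SE), and *Erbb3* was at 33.7, 30.8, and 32.6 TPM in the Year 0.5 rats and 33.8, 35.5, and 37.2 TPM in the Year 1 rats, with 0.12 ± 0.06 (SE). The lower genes were *Plau*, *Aplnr*, and *Wif1*. *Spp1*, the gene of osteopontin, stayed low at both ages, at 2.53, 1.897, and 4.896 TPM in the Year 0.5 rats and 1.996, 2.47, and 1.56 TPM in the Year 1 rats.

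Several lists showed little. Among 22 ciliated cell markers, 14 cardiac muscle markers, and 8 mesothelial cell markers, 0 were without overlap in either direction. Of the ciliated cell markers, 19 were above 0 and 3 below, with a median log2 fold change of 0.16. That median ranged from 0.03 to 0.37 over the alternatives, and the rats of the 2 time points overlapped in their member medians. Respiratory chain subunits were below 0 in 31 of 35 members, but by a median of only -0.05 (-0.02 without Year 0.5 replicate 3). Of these subunits, 4 (11.4%) were lower without overlap (2 in TPM), beside 6.09% of all genes. Among 18 p53 target and senescence genes, 1 was higher and 1 was lower without overlap, which were *Plaur* and *Gdf15*. That was 5.56% each, beside 5.74% and 6.09% of all genes.

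The same interval in MWCNT-treated rats gave 12 genes of 14259 (0.0842%) that passed the FDR and 9 DEGs (0.0631%), while 1140 genes (7.99%) had an unadjusted p below 0.05. Among these *S100a9* rose in MWCNT-treated rats, at 235, 226, and 260.5 TPM at Year 0.5 and 671, 539, and 639.7 TPM at Year 1, with a log2 fold change of 1.42 ± 0.08 (SE) and an FDR of 0.00028. The control difference of *S100a9* minus this one was -0.97 ± 0.16 (SE). Over the 14630 genes in which the change with time was compared between treatments, 0 passed the FDR in edgeR's quasi-likelihood test, 1173 (8.02%) had an unadjusted p below 0.05, and the smallest FDR was 0.32. DESeq2 called 12 interactions, among them those of *S100a9*, *Mki67*, and *Slc34a2*. *Mki67* was at 8.39, 10.3, and 8.39 TPM at Year 0.5 and 6.82, 5.45, and 6.78 TPM at Year 1 in MWCNT-treated rats, lower at Year 1 without overlap, against the higher level in control rats. Across 13977 genes, which are not independent replicates, Pearson's r between the log2 fold changes of the 2 treatments was -0.01, and 46.1% of the genes had the same sign. Among the 1025 of these genes with an unadjusted p below 0.05 in the control rats, 560 (54.6%) had the same sign in MWCNT-treated rats.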

How the data were processed

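RNA sequencing of rat lung was analysed in 6 control rats, with 6 MWCNT-treated rats of the same time points in the interaction. Levels in the 3 Year 2 control rats were shown without a test. The authors mapped the reads to the rat genome and counted them per gene in CLC Genomics Workbench, and the deposited tables give for each rat the read counts and TPM. The submitters' processing notes name the builds Rnor_6.0 and rn6. How reads shared by paralogs or overlapping genes were assigned, and whether strand was used, is not given in the sources used here, so values of such genes are uncertain. The RPKM and CPM columns and the authors' own comparison columns (fold changes and p-values between treatments) were not used. TPM was used for the levels shown.

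The 3 deposited tables were joined by identifier. Genes were kept by filterByExpr of edgeR (minimum count 10, minimum total count 15), scaled by TMM, and tested with edgeR 4.0.16 (glmQLFit and glmQLFTest, two-sided) in R 4.3.3, with Benjamini-Hochberg adjustment over all genes tested. SE was the absolute log2 fold change divided by the square root of F. The interaction was the control time effect minus the MWCNT time effect in 12 rats. DESeq2 1.42.0, the likelihood ratio test, limma 3.58.1 on log2(TPM + 1) and log2(TPM + 0.1), other normalizations and filters, a replicate block, 12 or 18 rats in 1 model, other thresholds, and leaving out each rat were the alternatives. The scripts were tested on simulated data. Groups came from the sample labels, and nothing in the labels calls the rats repeats of 1 animal.

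The comparison and the gene lists were chosen with earlier results of these data known. Lists were described by counts and medians beside all genes, with no test over a list. Named are up to 4 members with the smallest p in each list and the genes measured by qRT-PCR. All others (the 8 genes at the smallest FDR, genes called by an alternative, and further members such as *Egr3*, *Junb*, *Per2*, and *Arntl*) were chosen after their values were seen, as was the comparison of overlap in TPM. Promoters of clock genes were not searched.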

Additional observations from a re-analysis of the deposited data

How the results depend on the processing

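With 3 rats a group, the number of control genes past the FDR depended on the tool. DESeq2 gave 35 genes, 5 of them DEGs (3 higher and 2 lower at Year 1), the likelihood ratio test of edgeR gave 25 genes, 6 of them DEGs (4 higher and 2 lower), and leaving out 1 rat gave 0 to 44 genes, among them 0 to 7 DEGs, which were all higher. The 44 genes and 7 DEGs came without Year 1 replicate 1. No other normalization, filter, unit, or joint model gave a control call. With the replicate number as a block 3 genes passed, all lower DEGs, *Ccn1* (FDR 0.008), *Egr1* (0.0343), and *Fos* (0.0471). Between the deviations of rats with the same number, Pearson's r across genes was -0.02, -0.24, and 0.08. With different numbers it ranged from -0.26 to 0.26. The labels do not say what the number marks, and a shared cage or batch was not tested. The 9 DEGs of the MWCNT-treated rats became 28 with DESeq2, 36 with the likelihood ratio test, 5 with 12 rats in 1 model, 15 with the block, 3 at an FDR below 0.01, and 3 to 8 when a rat was left out. Interactions were 12 with DESeq2 and 0 to 1 when a rat was left out. The median over all genes stayed between -0.0068 and 0.0164, and the median of the immediate early genes between -0.70 and -0.43. Without Year 1 replicate 2 the log2 fold change of *Ccn2* was -0.0323 and that of *Klf6* -0.003, against 0.2342 and 0.0825 without Year 1 replicate 1, so that their direction was not settled. Leaving out 1 rat moved the medians of several lists by over 1.5 times while their sign was kept. Without Year 0.5 replicate 3 the median was 0.78 for glucocorticoid receptor targets, 0.23 for NK and cytotoxic markers, -0.08 for TGF-beta and BMP genes, and -0.08 for fibroblast markers, and without Year 0.5 replicate 1 it was 0.10 for macrophage markers. Without Year 1 replicate 1 it was 0.10 for T cell markers, and without Year 1 replicate 2 it was 0.28 for T cell markers, 0.54 for neutrophil markers, and 0.11 for macrophage markers.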

Other observations

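Among antigen presentation and complement genes 0 were called. Of 11 MHC class II presentation genes, 10 were above 0 and 2 were higher without overlap (5 in TPM), beside 5.74% of all genes, with a median log2 fold change of 0.12, or 0.06 without Year 1 replicate 1. *Ciita*, the transactivator of these genes, was at 9.94, 10.999, and 11.5 TPM in the Year 0.5 rats and 12.1, 13.2, and 13.8 TPM in the Year 1 rats, with 0.25 ± 0.08 (SE). Of 24 complement genes, 20 were above 0 but only 1 (4.17%) was higher without overlap, and the rats of the 2 time points overlapped in their member medians. The median was 0.12, or 0.05 without Year 0.5 replicate 1. That gene was *C5*, the source of the anaphylatoxin C5a, at 28.97, 24.7, and 32.3 TPM in the Year 0.5 rats and 35.8, 37.3, and 37.8 TPM in the Year 1 rats, with 0.35 ± 0.09 (SE).

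Among matrix enzymes and chemokines, some genes were lower and others higher. *Loxl1*, which crosslinks elastin, was at 133, 149, and 129 TPM in the Year 0.5 rats and 126, 97.9, and 106 TPM in the Year 1 rats, with -0.33 ± 0.11 (SE), and *Mmp19*, a metalloproteinase, was at 18.8, 18.5, and 20.97 TPM in the Year 0.5 rats and 16.3, 15.7, and 15.3 TPM in the Year 1 rats, with -0.32 ± 0.09 (SE). Both were lower in all Year 1 rats. Of 19 collagen processing enzymes, 12 were below 0 and 7 above, and 3 (15.8%) were lower and 0 higher without overlap. Of 14 metalloproteinases and inhibitors, 8 were below 0 and 6 above, and 2 (14.3%) were lower and 1 (7.14%) higher without overlap. *Lox* and *Timp4* of these lists were above 0, with 0.26 and 0.82, and their groups overlapped. *Cxcl12*, a stromal chemokine, was at 33.9, 30.6, and 29.8 TPM in the Year 0.5 rats and 27.6, 24.05, and 28.1 TPM in the Year 1 rats, with -0.26 ± 0.09 (SE), while *Ccl6*, a chemokine of alveolar macrophages, was at 732, 751, and 684 TPM in the Year 0.5 rats and 842, 806, and 824 TPM in the Year 1 rats, with 0.17 ± 0.06 (SE). Of 29 chemokine ligands, 2 were higher and 2 were lower without overlap (6.9% each, beside 5.74% and 6.09% of all genes). *Rgs5*, a marker of pericytes, was at 56.6, 53.02, and 50.1 TPM in the Year 0.5 rats and 41.8, 47.9, and 44.5 TPM in the Year 1 rats, with -0.27 ± 0.09 (SE). Of 16 smooth muscle and pericyte markers, 2 (12.5%, beside 6.09% of all genes) were lower and 0 were higher without overlap.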
